A study of Mus musculus with 3 samples.

Results

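The tubulin isotypes described here are 10 genes of the blastocyst count table, found by their symbols among 24063 genes. They are 4 α-tubulin genes (Tuba1a, Tuba1b, Tuba1c and Tuba4a) and 6 β-tubulin genes (Tubb2a, Tubb2b, Tubb3, Tubb4b, Tubb5 and Tubb6), and all 10 had at least 1 count in every library. Blastocysts of C57BL/6 (B6), the diabetes-resistant control strain, were compared with blastocysts of NOD, an inbred strain that spontaneously develops autoimmune diabetes. There were 3 RNA-Seq libraries, 1 from B6 and 2 from NOD (NOD 1 and NOD 2), all from untreated embryos. The labels give whole blastocysts as the input and the paper's methods give a single inner cell mass (ICM) isolated by immunosurgery, a step meant to remove the trophectoderm, and the hour of collection is not given in the sources used here. The libraries were made with SMART-Seq V4, a kit for very small inputs that copies whole transcripts and then amplifies them by PCR without molecular identifiers.

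Microtubules are hollow polymers of α- and β-tubulin heterodimers. They build the mitotic spindle, position organelles and, in the early embryo, accompany the polarisation of the outer cells that become trophectoderm. The isotypes are encoded by separate genes, are nearly alike in their globular body, and differ mostly in the acidic tail at the C-terminus, on which motor proteins, associated proteins and modifying enzymes act. Most α-tubulin genes encode a terminal tyrosine that can be removed and put back, whereas Tuba4a is known to lack it. Free tubulin dimers also trigger the decay of tubulin mRNAs during translation, through recognition of the first residues of the nascent chain.

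The coding ends are shown first because they are where the isotypes differ, and because the likeness of the rest of the genes limits how well short reads can be assigned to each. For 2 of the α-tubulin genes, the last 60 coding bases with the stop codon are given 5′ to 3′ on the coding strand (GRCm38, all within the last exon), with capitals at the bases that differ from Tuba4a in a global alignment:
Tuba1c: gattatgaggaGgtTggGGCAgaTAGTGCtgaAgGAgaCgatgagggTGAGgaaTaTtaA
Tuba4a: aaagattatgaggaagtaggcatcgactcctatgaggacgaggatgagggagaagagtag

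The codon before the stop was tat in Tuba1c, which codes for tyrosine, and gag in Tuba4a, which does not. For 5 β-tubulin genes, capitals mark the bases that differ from Tubb5 in the same way:
Tubb2a: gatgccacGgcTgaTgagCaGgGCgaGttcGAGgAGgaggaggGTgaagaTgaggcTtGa
Tubb2b: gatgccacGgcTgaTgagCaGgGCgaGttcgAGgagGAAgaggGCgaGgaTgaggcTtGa
Tubb3: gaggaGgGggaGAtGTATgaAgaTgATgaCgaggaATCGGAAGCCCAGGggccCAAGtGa
Tubb4b: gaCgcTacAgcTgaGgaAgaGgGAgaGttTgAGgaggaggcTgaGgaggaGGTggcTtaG
Tubb5: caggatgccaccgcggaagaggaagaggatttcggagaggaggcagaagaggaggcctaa

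Over these 60 bases, Tubb3 differed from Tubb5 at 32 and Tubb2a at 18. Tuba1c differed from Tuba4a at 23. Capitals and these numbers include bases that face a gap in the alignment. The coding sequence is 1353 bases long in Tubb3 and 1335 in Tubb5. Over the whole coding sequence, identity was 98.3% between Tuba1a and Tuba1b, 97.9% between Tuba1b and Tuba1c and 97.1% between Tuba1a and Tuba1c. Tuba4a was 84.7% to 85.2% identical to these 3. Among the β-tubulin genes, only Tubb2a and Tubb2b were that close, at 96.5%, while Tubb5 and Tubb6 were 80.2% identical.

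Reads were single-end and 50 bases long, so the share of each transcript's 50-base words found at no other locus says how much of it such a read could place in the reference transcripts. This share was 100% for Tubb3 and Tubb6, 99.9% for Tubb5 and 98.5% for Tuba4a. It was 55.2% for Tubb2b, 50.2% for Tubb2a and 49.1% for Tubb4b. It was 38.8% for Tuba1c, 26.9% for Tuba1a and 9.85% for Tuba1b. The counts of Tuba1a, Tuba1b and Tuba1c are therefore uncertain individually, because they share reads with each other and with pseudogenes, and how reads with several matches were treated is not stated in the sources used here. Counting took both strands together, so reads from overlapping genes on opposite strands could not be told apart. Tuba4a overlaps Stk16, a kinase gene, by 633 bases, and Tubb4b overlaps Fam166a by 124. The words come from the reference alone, so how well reads of NOD sequence could be placed, for Tubb5 or any other member, was not tested.

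**Figure D1:**
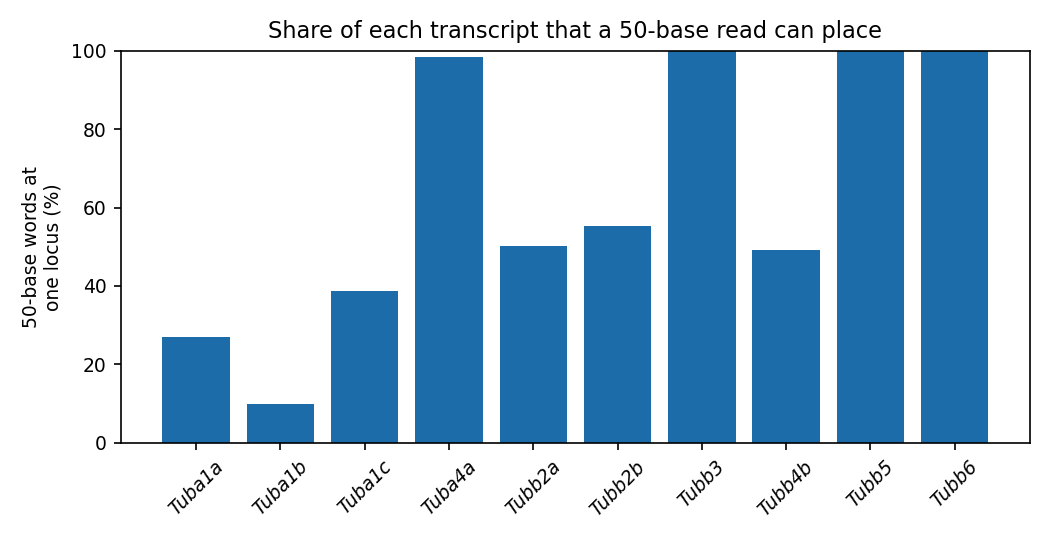
Bars give, for each of the 10 tubulin genes, the percentage of 50-base words of its reference transcript that occur at a single locus (y axis, 0 to 100%). Tuba4a, Tubb3, Tubb5 and Tubb6 stand at 98.5% or more, and Tuba1b is lowest at 9.85%.

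Counts on genes summed to 12505685 in B6, against 33891715 in NOD 1 and 36171013 in NOD 2, so the B6 library sets the precision. On the scale of CPM (counts scaled to the library total, with edgeR's TMM factors), a single count was worth 0.0734 CPM in B6, against 0.0303 in NOD 1 and 0.0294 in NOD 2. NOD 1 and NOD 2 differed far beyond counting error (chi-square per degree of freedom of 102.8 over genes), so they were kept as separate replicates. Nothing in the labels says that they came from separate litters, so p-values measure only the spread between these libraries, and strain cannot be told apart from the single B6 library. Strains were compared with the quasi-likelihood test of edgeR over 14456 genes, with Benjamini-Hochberg adjustment. Calls required an adjusted p under 0.05 together with a change of 2-fold or more. Of all genes tested, 17.7% were called, 10.3% up and 7.39% down in NOD, with a median log2 fold change of 0.26. With scaling by total counts only, that median was 0.07 and the up-regulated share of calls was 47.8% in place of 58.1%. The test rests on 1 residual degree of freedom shared across genes, and with 1 library against 2 the smallest p of an exact permutation test is 0.333.

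Markers of the blastocyst's own cell types were present. The summed level of 11 trophectoderm markers was 3134 CPM in B6, against 1807 in NOD 1 and 1667 in NOD 2, with 8 of the 11 lower and 3 higher in both NOD libraries. Of all genes, 39.4% were lower and 45.3% higher in both. None of the 10 trophectoderm markers tested was called, their median log2 fold change was -0.88, and 7 had an unadjusted p under 0.05, beside 39.9% of all genes. The 11 ICM markers summed to 762.5 CPM in B6, against 566.7 in NOD 1 and 803.4 in NOD 2. Of these 11, 2 were called up, Tdgf1 (log2 fold change of 4.75) and Pdgfra (2.13), and 2 down, Sox2 (-2.70) and Gata6 (-1.80), beside 10.3% up and 7.39% down of all genes, and their median was 1.23. Markers of leukocytes summed to at most 1.03 CPM and those of neurons to at most 3.45 CPM in any library, although 2 of the 7 neuron markers, Map2 and Stmn2, are also listed below as microtubule genes. Markers of cumulus cells summed to 5.58, 8.92 and 19.9 CPM, of which Amhr2 alone made up 5.36, 8.44 and 19.7, with 5, 6 and 5 of the 8 at 0. Those of oviduct and uterine epithelium summed to 66.3, 179.6 and 227.7 CPM, nearly all of it from Wfdc2, with 4 of the 6 at 0 in B6, also 4 in NOD 1 and 3 in NOD 2. Wfdc2 was called up in NOD (log2 fold change of 1.59, edgeR adjusted p = 0.0381), both genes of this list that were tested had an unadjusted p under 0.05, and their part in the tubulin values was not tested. In such bulk libraries, fewer cells of a type and less RNA per cell cannot be told apart.

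The 10 tubulin genes together made up 0.179% of all counts in B6, against 0.124% in NOD 1 and 0.123% in NOD 2. Their summed level was 1640 CPM in B6, against 1274 in NOD 1 and 1302 in NOD 2, which is -0.35 on the log2 scale for the NOD mean against B6. The lower sum in NOD lay in the β-tubulin genes, with 1134 CPM in B6 and 796.0 and 707.3 in NOD, whereas the α-tubulin genes summed to 505.8, 478.0 and 594.8 CPM and B6 lay between the NOD libraries. No test was made of these sums. None of the 9 members that passed the filter on low counts was called by edgeR, against a background of 17.7%. At an unadjusted p under 0.05 there were 3 of the 9, namely Tubb5, Tubb6 and Tubb3, a level that 5763 of all 14456 genes tested (39.9%) reached. Tubb3, with 1 count in B6, passed the filter on low counts through NOD alone, where it is high, so its p adds no support. limma-voom gave 2 at that level and called none, and DESeq2 called 1, Tubb6, up, where it called 18.5% of all genes up.

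Levels between genes are compared per length, as FPKM (fragments per kilobase of listed length and per library total, in the usual units). In B6, Tubb5 was highest at 290.2 FPKM, followed by Tubb4b at 245.3, Tuba4a at 138.3, Tuba1c at 81.1 and Tuba1b at 59.9. In NOD 1 the order was Tubb4b at 161.4, Tubb5 at 144.0 and Tuba4a at 142.2, and in NOD 2 it was Tuba4a at 193.2, Tubb5 at 133.8 and Tubb4b at 122.9. These 3 genes thus changed places between the NOD libraries and were not separable there. Tubb6 was 6th of the 10 in B6, at 28.8 FPKM, and 4th in both NOD libraries, at 61.5 and 52.2. Tuba1c and Tuba1b stood next in NOD, at 48.7 and 44.3 FPKM for Tuba1c and 44.5 and 36.9 for Tuba1b. Their ranges overlapped between the NOD libraries, but within each library Tuba1c was the higher. Tubb2a, Tuba1a, Tubb2b and Tubb3 were the lowest 4 in every library. Because most words of the Tuba1 genes and of Tubb4b occur at several loci, their places in this order depend on how such reads were counted.

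**Figure D2:**
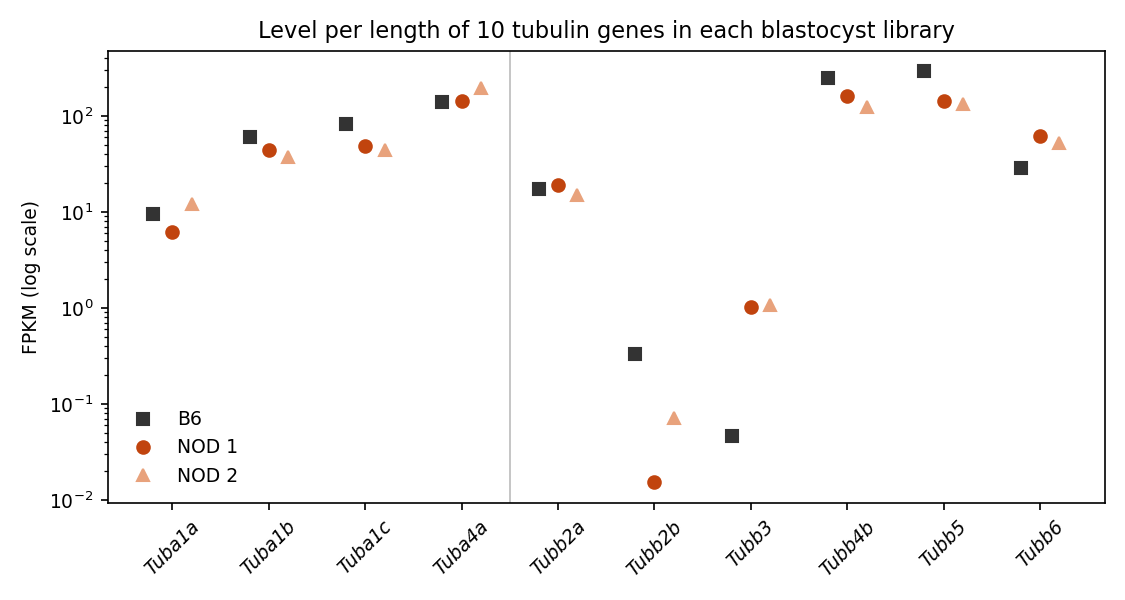
Points give the level of each of the 10 tubulin genes in FPKM (log scale) in the B6 library (square), NOD 1 (circle) and NOD 2 (triangle), with α-tubulin genes left of the line. For Tubb5 and Tubb4b the B6 point lies above both NOD points, and for Tubb6 and Tubb3 it lies below both.

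Among the α-tubulin genes, Tuba4a, the isotype without the encoded tyrosine, was the most abundant in all 3 libraries on the FPKM scale. Tuba4a (NM_009447, chr1:75214974-75219253) had 3540 counts in B6, against 9865 in NOD 1 and 14308 in NOD 2, or 259.8, 298.4 and 420.4 CPM. B6 was below both NOD libraries, but the NOD libraries themselves differed by 1.41-fold. The NOD level of 359.4 ± 86.3 CPM (SD, n = 2) gave a log2 fold change of 0.47 (SE 0.30, 95% interval -0.30 to 1.24, edgeR adjusted p = 0.288). It was 0.20 without NOD 2 and 0.69 without NOD 1. Of its 50-base words, 29.1% are shared with the overlapping Stk16, which had 1863, 4262 and 4201 counts and a log2 fold change of -0.12 (edgeR adjusted p = 0.756). The part of Stk16 reads in the Tuba4a counts was not tested.

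Tuba1a, Tuba1b and Tuba1c lie within one stretch of chromosome 15. Tuba1c (NM_009448, chr15:99029891-99038105) had 2000 counts in B6, against 3256 in NOD 1 and 3156 in NOD 2, or 146.8, 98.5 and 92.7 CPM, so that B6 was above both NOD libraries. Its log2 fold change was -0.62 (SE 0.27, interval -1.31 to 0.08, edgeR adjusted p = 0.157). Tuba1b (NM_011654, chr15:98931431-98934390), the ubiquitous isotype of proliferating cells, had 1165, 2347 and 2079 counts, or 85.5, 71.0 and 61.1 CPM. B6 was again the highest of the 3, by less than for Tuba1c, and the log2 fold change of -0.37 had an interval from -1.20 to 0.45 (edgeR adjusted p = 0.410).

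Tuba1a (NM_011653, chr15:98949847-98953501), the major α-tubulin of postmitotic neurons, was the lowest of the 4, with 188, 334 and 699 counts or 13.8, 10.1 and 20.5 CPM. B6 lay between NOD 1 and NOD 2, which differed by 2.03-fold. Its log2 fold change of 0.15 (interval -1.46 to 1.76, edgeR adjusted p = 0.866) became -0.45 without NOD 2 and -0.04 with total counts only, so it has no settled direction. Since reads may be split among these 3 genes, their sum is the safer measure. The sum was 3353 counts in B6, against 5937 in NOD 1 and 5934 in NOD 2, or 246.0, 179.6 and 174.4 CPM, and the NOD libraries lay closer to each other (177.0 ± 3.70 CPM, SD, n = 2) than to B6.

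Among the β-tubulin genes, Tubb5 and Tubb4b were lower in NOD and Tubb6 was higher, on the CPM scale. Tubb5 (NM_011655, chr17:35833920-35838301), a broadly expressed isotype needed for division of neural progenitors, had 9576 counts in B6, against 12876 in NOD 1 and 12768 in NOD 2, or 702.7, 389.5 and 375.2 CPM. The NOD libraries were nearly alike (382.3 ± 10.1 CPM, SD, n = 2) and both far below B6. The log2 fold change was -0.88 (SE 0.20, interval -1.40 to -0.36), past the limit on p (edgeR adjusted p = 0.0474) but short of 2-fold. Its adjusted p ranged from 0.00474 to 0.0920 over 7 other fits. Scaled by total counts only, it was called down with a log2 fold change of -1.06, where 7.83% of all genes were. Relative to the median of all genes, which moved with the scaling, its log2 difference was -1.14 with either. A change of scaling shifts all genes nearly alike, so this agreement was fixed in advance and adds no support.

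Tubb4b (NM_146116, chr2:25222158-25224702), a broadly expressed isotype also used in cilia, had 4890 counts in B6, against 8718 in NOD 1 and 7085 in NOD 2, or 358.8, 263.7 and 208.2 CPM. B6 was above both NOD libraries, and the log2 fold change was -0.60 (SE 0.25, interval -1.27 to 0.06, edgeR adjusted p = 0.149). Fam166a, which overlaps its end, had 1079, 790 and 487 counts and fell in NOD (log2 fold change of -2.05, edgeR adjusted p = 0.0432). The part of Fam166a reads in the Tubb4b counts was not tested. Of the 11 trophectoderm markers, 8 were lower and 3 higher in both NOD libraries with none called, and their part in the values of Tubb5 and Tubb4b was not tested. Immunosurgery, as in the paper's methods, is meant to remove trophectoderm cells, whereas the labels give whole blastocysts. The 11 markers summed to 3134 CPM in B6, against 1807 in NOD 1 and 1667 in NOD 2.

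Tubb6 (NM_026473, chromosome 18), an isotype known for making microtubules less stable when abundant, had 627 counts in B6, against 3621 in NOD 1 and 3279 in NOD 2, which is 46.0 CPM in B6 against 109.5 and 96.4 CPM in NOD (102.9 ± 9.33, SD, n = 2), so both NOD libraries lay above B6 and close to each other. The log2 fold change of 1.16 (SE 0.32, interval 0.33 to 1.996) missed the limit with an edgeR adjusted p = 0.0670, and ranged from 0.98 to 1.19 over 7 other fits, with adjusted p from 0.0131 to 0.147. Of these fits DESeq2 alone called it up. None of its 50-base words occurs in another gene.

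Tubb2a (NM_009450, chr13:34074280-34078008), abundant in neurons, had 349, 1037 and 866 counts, or 25.6, 31.4 and 25.4 CPM. B6 lay between the NOD libraries, and the log2 fold change of 0.15 (interval -0.90 to 1.20, edgeR adjusted p = 0.796) was -0.03 with total counts only. Its near-copy Tubb2b (NM_023716, chr13:34127008-34130354), an isotype of neurons and glia, had 8 counts in B6, against 1 in NOD 1 and 5 in NOD 2 and was not tested. The ratio of NOD to B6 was 0.152, with an exact 95% interval from 0.0436 to 0.501 that covers counting error only, and reads that fit both genes may be split between them. Tubb3 (NM_023279, chr8:123411564-123422010), the neuronal class III β-tubulin, had 1 count in B6, against 59 in NOD 1 and 67 in NOD 2. The level in NOD was 1.88 ± 0.13 CPM (SD, n = 2), and the ratio to B6 was 25.6 with an exact interval from 4.51 to 1019. It was not called (edgeR adjusted p = 0.116). None of the 4 neuron markers tested was called, and the 7 on the list summed to 3.45 CPM in B6, against 2.15 in NOD 1 and 1.15 in NOD 2, of which Syt1 made up 1.69, 0.333 and 0.0882. Their part in the Tubb3 counts was not tested.

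**Figure D3:**
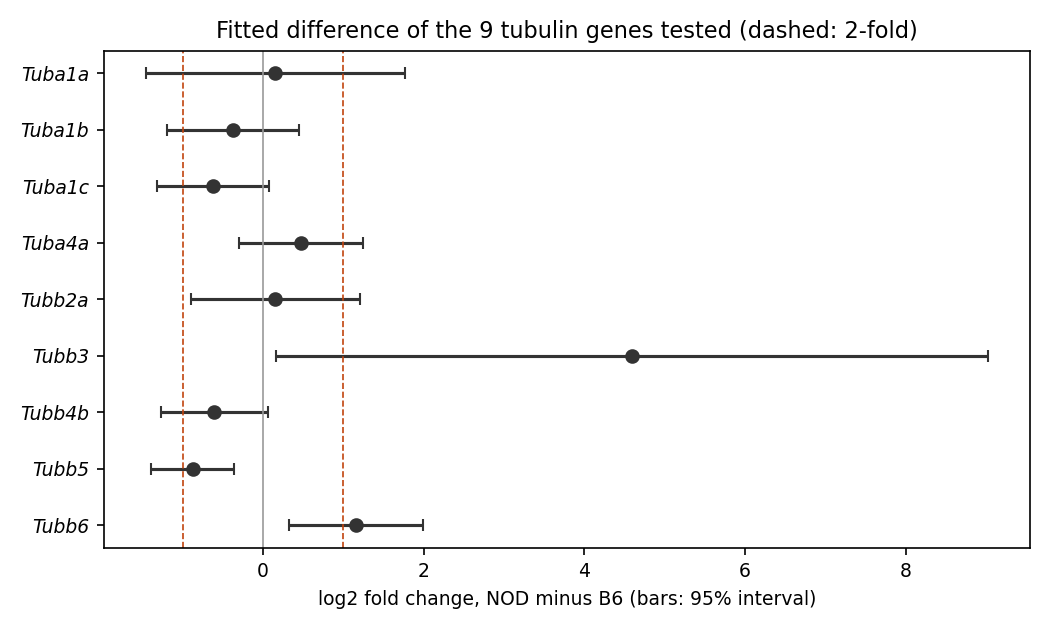
Points give the fitted log2 fold change, NOD minus B6, of the 9 tubulin genes tested by edgeR, bars the 95% interval, and dashed lines a 2-fold change. The intervals of Tubb5 (-1.40 to -0.36), Tubb6 (0.33 to 1.996) and Tubb3 (0.16 to 9.02) do not reach 0. Tubb3, with 1 count in B6, passed the filter on low counts through NOD alone, so its interval adds no support.

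Isotype usage was computed in each library as the share of a gene in the counts per kilobase of its family, which does not depend on the scaling between libraries. Tuba4a supplied 47.9% of α-tubulin in B6, against 58.8% in NOD 1 and 67.4% in NOD 2. The NOD mean was 15.2 percentage points above B6, against an SD of 6.06 points between the NOD libraries. Tuba1c went the other way, with 28.1%, 20.2% and 15.4%, and so did Tuba1b, with 20.7%, 18.4% and 12.9%. Tuba1a stayed small, at 3.28%, 2.57% and 4.25%. The ratio of Tuba4a to Tuba1c in FPKM was 1.70 in B6, against 2.92 in NOD 1 and 4.37 in NOD 2, all 3 libraries being apart.

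Within β-tubulin, Tubb5 supplied 49.8% in B6, against 37.2% in NOD 1 and 41.2% in NOD 2, which is 10.7 points lower in the NOD mean (SD 2.80 points). Tubb4b supplied 42.1%, 41.7% and 37.8%, so that NOD 1 was close to B6. Tubb6 supplied 4.96% in B6 and 15.9% and 16.1% in NOD, a difference of 11.0 points against an SD of 0.118. The ratio of Tubb6 to Tubb5 in FPKM was 0.0994 in B6, against 0.427 in NOD 1 and 0.390 in NOD 2. It compares a pair of genes whose words are 99.9% or more at a single locus in the reference transcripts. Tubb2a supplied 2.998%, 4.94% and 4.61%. Tubb3 supplied 0.00800%, 0.262% and 0.332%. Tubb2b stayed under 0.1% in each library. The ratio of α- to β-tubulin in FPKM was 0.496 in B6, against 0.624 in NOD 1 and 0.882 in NOD 2. No test was made of these shares and ratios, since an exact permutation test cannot go below 0.333 here, and each difference is set beside the spread between the NOD libraries only.

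**Figure D4:**
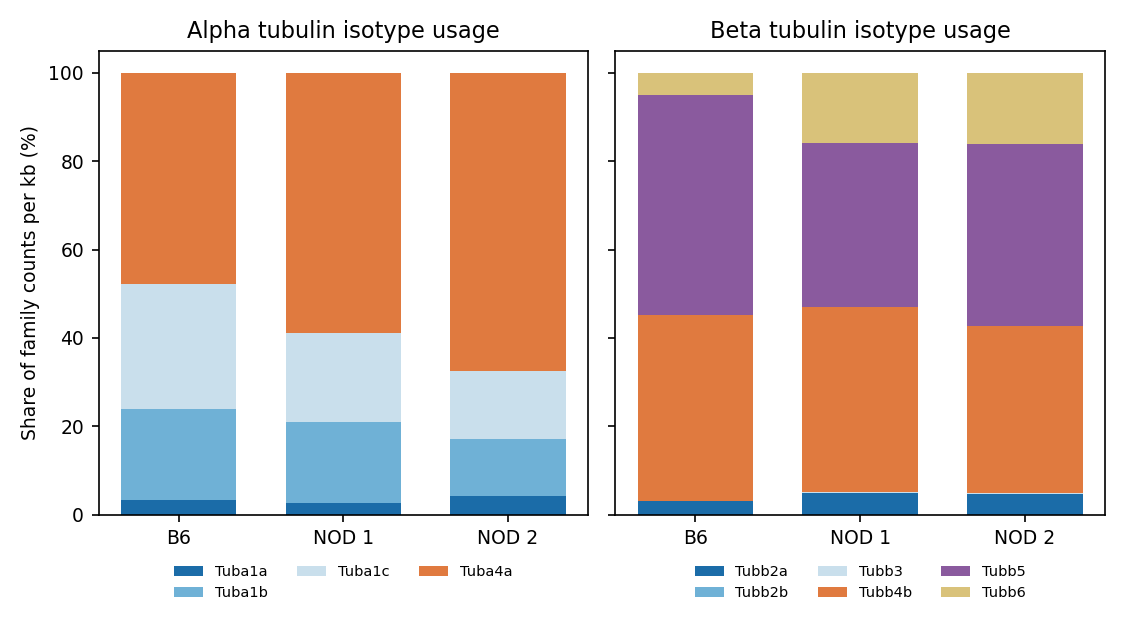
Stacked bars give the share (%) of each gene in the counts per kilobase of the α-tubulin members (left) and the β-tubulin members (right) in each library. Tuba4a stands at 47.9% in B6 and 58.8% and 67.4% in NOD, and Tubb6 at 4.96% and 15.9% and 16.1%, while Tubb2b and Tubb3 are too small to be seen.

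The order of the isotypes depended on how length was counted. The direction of the differences in Tuba4a, Tubb5 and Tubb6 did not. A gene's length is the same in every library, so this change of scale could hardly reverse them and is no test of read placement. Where only the 50-base words found at a single locus were counted as length, Tuba1b became the largest α-tubulin gene, with 61.4% in B6, against 60.8% in NOD 1 and 51.5% in NOD 2, and Tuba4a supplied 14.1%, 19.3% and 26.8%. Tubb4b was then above Tubb5, at 58.7%, 57.5% and 53.7% against 33.8%, 24.9% and 28.4%. Tubb6 supplied 3.38% in B6 and 10.7% and 11.2% in NOD. This scale is right only if reads with several matches were dropped, and the listed length only if they were all kept at their source, so the abundance order of Tuba4a and Tuba1b is not settled by these counts. As raw counts, the B6 shares were 51.4% for Tuba4a (exact Clopper-Pearson 95% interval 50.2% to 52.5%), 62.0% for Tubb5 (61.2% to 62.7%) and 4.06% for Tubb6 (3.75% to 4.38%). These intervals cover counting error only.

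The table also held tubulin genes outside the 10 members. The α-tubulin genes Tuba3a and Tuba3b, best known from testis, were higher in both NOD libraries. Tuba3a had 42 counts in B6, against 508 in NOD 1 and 733 in NOD 2, and rose in NOD with a log2 fold change of 2.58 (SE 0.60, edgeR adjusted p = 0.0495). This call is at the edge of the limit, was lost in 5 of 7 other fits, and had adjusted p from 0.00553 to 0.171 over these. Tuba3b, 97.0% identical to it over the coding sequence, had 16, 170 and 319 counts and a log2 fold change of 2.62 (edgeR adjusted p = 0.102). Added to the α-tubulin members, Tuba3a made up 0.766% in B6, against 3.92% in NOD 1 and 4.405% in NOD 2. Tubb4a, a β-tubulin of oligodendrocytes and neurons, had 8, 4 and 3 counts (ratio of 0.178, exact interval 0.0549 to 0.561). Tuba8 had 1, 0 and 6 counts. Tubal3 had 44 counts, all in NOD 2. Tubb1, the platelet isotype, had 0 in all 3 libraries.

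γ-tubulin nucleates microtubules. Tubg1, its main gene, had 714 counts in B6, against 3362 in NOD 1 and 5557 in NOD 2, or 52.4, 101.7 and 163.3 CPM. Both NOD libraries were above B6, and the log2 fold change of 1.34 was not called by edgeR (SE 0.41, edgeR adjusted p = 0.0821). DESeq2 alone among the 7 other fits called Tubg1 up (1.30, DESeq2 adjusted p = 0.00646), where it called 18.5% of all genes up. Tubg2 had 0 counts in B6 and 33 in each NOD library. The pooled NOD level was 4.47-fold the floor of 3 counts in the B6 library, a floor that covers counting error only. Tubg2 was not called (edgeR adjusted p = 0.112), and it passed the filter on low counts through NOD alone, so its p adds no support. The centriolar tubulins Tubd1 and Tube1 had 360, 418 and 321 counts and 181, 404 and 552 counts, with log2 fold changes of -1.26 (edgeR adjusted p = 0.117) and 0.10 (edgeR adjusted p = 0.894).

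Genes that fold, modify and organise tubulin were described from 8 lists. Of 99 genes in the table, 92 were tested and 15 were called, 6 up and 9 down in NOD. This is 16.3%, beside 17.7% of all genes, and the median log2 fold change was 0.19, beside 0.26 for all genes. All 15 calls were lost with limma-voom or without the filter on low counts. Newly made tubulin is passed by prefoldin to the CCT chaperonin, whose 8 subunits had a median of 0.55 and no call by edgeR. DESeq2 and edgeR with 1 common dispersion each called 1 up, where DESeq2 called 18.5% of all genes up. By edgeR, 5 of the 8 had an unadjusted p under 0.05, beside 39.9% of all genes. Cct7 and Cct8, the 2 with most counts, had log2 fold changes of -0.12 (edgeR adjusted p = 0.672) and 0.90 (edgeR adjusted p = 0.0657). In prefoldin, 1 of 6 subunits rose and 1 fell. Pfdn4 went from 829 counts in B6 to 5829 and 6582 in NOD (log2 fold change of 1.60), and Pfdn5 had 3268, 3322 and 3154 counts (-1.31). The median of prefoldin was 0.04.

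The folding cofactors assemble the heterodimer, and 1 of 7 was called, near the 17.7% of all genes, with a median of 0.07. Tbcd, the cofactor that captures β-tubulin, fell from 49.3 CPM in B6 to 9.56 and 8.26 CPM in NOD (log2 fold change of -2.47, SE 0.40, edgeR adjusted p = 0.0282). It had 672, 316 and 281 counts, so the 2 deeper libraries held fewer reads of it than B6. For autoregulation of tubulin mRNA, none of 3 genes was called by edgeR. DESeq2 and edgeR with 1 common dispersion each called 1 up, where DESeq2 called 18.5% of all genes up. Ttc5, which reads the start of the nascent tubulin chain and was named after its values were seen, had 237, 748 and 908 counts and a log2 fold change of 0.50 (edgeR adjusted p = 0.407). Cnot1 and Cnot11, of the deadenylase complex that it recruits, had log2 fold changes of -0.03 (edgeR adjusted p = 0.939) and 1.33 (edgeR adjusted p = 0.0555), and 1 of the 3 genes had an unadjusted p under 0.05, beside 39.9% of all genes.

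Among the modifying enzymes, 2 of 17 tested rose and 2 fell, close to the 10.3% up and 7.39% down of all genes, with a median of 0.49 beside 0.26. Ttll6, which adds glutamate chains to tubulin tails, fell from 1169 counts in B6 to 245 and 208 in NOD, or from 85.8 CPM to 7.41 and 6.11 (log2 fold change of -3.66, SE 0.38, edgeR adjusted p = 0.0203). Ttll12 also fell, with 1486, 1199 and 1037 counts (-1.71). Ttll1, the catalytic subunit of another glutamylase, rose from 57 counts to 794 and 768 (2.48, SE 0.51, edgeR adjusted p = 0.0408). Ttll7, a glutamylase that prefers β-tubulin, was called up from 0 counts in B6 to 185 and 75 in NOD. It passed the filter on low counts through NOD alone, where it is high, so its call adds no support to the count of the list. Neither increase was called with total counts only, upper-quartile factors or 1 common dispersion. Enzymes of the tyrosine cycle, named after their values were seen, were not called. Ttl, the ligase that restores the tyrosine, had 493, 1192 and 2234 counts (log2 fold change of 0.49, edgeR adjusted p = 0.481). Vash1, a carboxypeptidase that removes it, had 10, 0 and 2 counts and was not tested, and Vash2 had none in any library.

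Of 22 proteins that bind microtubules along their length or at their ends, 1 rose and 5 fell, with a median of -0.65, beside 10.3% up, 7.39% down and a median of 0.26 over all genes. Mapre3, an end-binding protein, fell from 749 counts in B6 to 153 and 170 in NOD (log2 fold change of -3.51, SE 0.40). Camsap3, which anchors minus ends in epithelial cells, fell from 1521 counts to 682 and 669 (-2.47, SE 0.33). Map4, the main microtubule-associated protein outside neurons, fell from 5241 counts to 3251 and 1932 (-2.31, SE 0.38). Map7 and Map1s fell too, and Map1lc3b, whose product is better known from autophagy, rose from 4891 counts to 25181 and 30291 (1.20), a call lost with upper-quartile factors. Of the 11 trophectoderm markers, 8 were lower and 3 higher in both NOD libraries and none was called. Their part in the values of Camsap3 and Map7 was not tested, with the same doubt on the input, whole blastocyst or ICM.

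In the γ-tubulin ring complex and augmin, 1 of 19 genes was called by edgeR, beside 17.7% of all genes, with a median of -0.03. DESeq2 called 5 up, where it called 18.5% of all genes up, and 1 down. Haus3, a subunit of augmin, which branches new microtubules off old ones, rose from 526 counts in B6 to 4698 and 7495 in NOD (log2 fold change of 2.23, SE 0.40, edgeR adjusted p = 0.0334). Of the destabilisers and severing enzymes, 1 of 10 tested was called up, close to the 10.3% of all genes, with a median of 0.31. Fignl1, related to the severing enzyme fidgetin and known for a role in DNA repair, rose from 378 counts to 3926 and 5390 (2.32, SE 0.37, edgeR adjusted p = 0.0275).

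**Figure D5:**
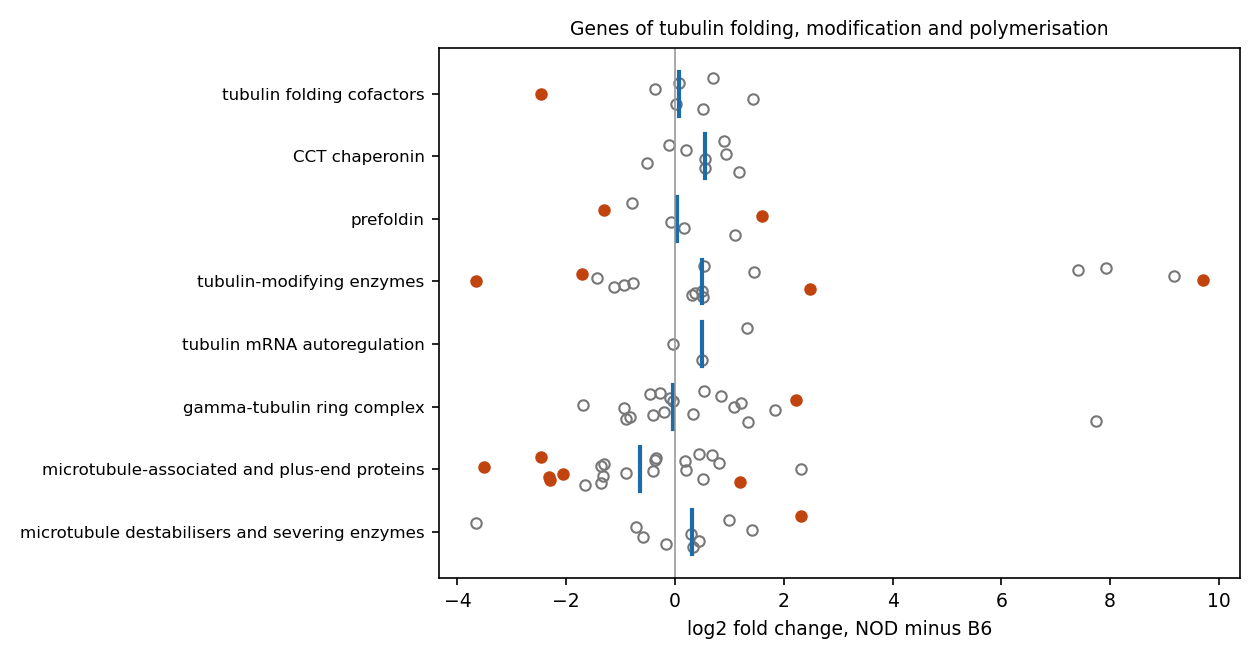
Each circle is a gene of 1 of 8 lists (y axis) at its log2 fold change, NOD minus B6 (x axis), filled where called by edgeR and open where not, and blue bars mark the list medians. The medians run from -0.65 for microtubule-associated and plus-end proteins to 0.55 for the CCT chaperonin, and the open circles above 7 are genes with 0 counts in B6, whose fitted values are not bounds.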

How the data were processed

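RNA-Seq of blastocysts was analysed in 1 B6 and 2 NOD libraries, grouped by the strain in the labels. The authors used STAR to align single-end reads to mm10 and HOMER to count them on exons of 1 RefSeq transcript per gene, and the deposited values are raw counts without normalization. The submitters' processing notes give CASAVA 1.8.2 and STAR 2.2.0c.

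Genes were kept by filterByExpr (minimum count 10), and log2 fold changes are NOD minus B6 with a prior count of 0.125, trended dispersion and TMM factors (edgeR 4.0.16, R 4.3.3). Alternatives used DESeq2 1.42.0, limma 3.58.1 and other scalings, units and filters. The test was tested on simulated data. FPKM was computed from listed lengths and total counts on genes. Floors and exact intervals cover counting error, since amplified reads are not independent molecules. Coding sequences and words came from GENCODE M21 (GRCm38), and some coding ends are not reported here.

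The members and lists were chosen with earlier results of these data known. Named genes are the 10 members, other tubulin genes, and per list the 3 largest called changes with at least 10 CPM in a library, or the 2 most abundant genes where none was called. Genes chosen after their values were seen are Ttc5, Ttl, Vash1 and Vash2, Ttll7, Map7, Map1s, Map1lc3b, Gata6, Stk16 and Fam166a.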

Additional observations from a re-analysis of the deposited data

How the results depend on the processing

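With 1 library against 2, calls depended on the test. Against 1483 genes called up and 1069 down, DESeq2 called 2365 and 1887, and upper-quartile factors left 701 down. limma-voom and edgeR without the filter on low counts each called 0 up and 0 down, with 3924 and 5568 genes at an unadjusted p under 0.05. In the 8 tubulin lists, against 6 up and 9 down, DESeq2 called 17 and 14, upper-quartile factors left 3 up, and limma-voom and the fit without the filter called 0 and 0. Among the members, against 0 in either direction, DESeq2 called 1 up (Tubb6) and total counts only called 1 down (Tubb5). The log2 fold change of Tuba1a was -0.043 with total counts only and ran from -0.45 to 0.57 when leaving out a NOD library, and that of Tubb2a was -0.033 and ran from -0.0092 to 0.29. Leaving out a NOD library leaves 1 against 1, which gives values without a test. The summed log2 difference of the members, -0.35, was -0.53 with total counts only and -0.39 with DESeq2 size factors. Per kilobase of words at a single locus, chosen after seeing the data, the share differences were 8.94 points for Tuba4a, -7.07 for Tubb5 and 7.56 for Tubb6, in place of 15.2, -10.7 and 11.0, and raw counts gave 9.63 for Tubb6. For Tuba1c, the words at a single locus gave -4.80 points in place of -10.3. Of the gene fold changes under the alternatives with a test, 81 kept their direction and side of the threshold, 2 reversed, 3 gained and 5 lost a call. Leaving out a NOD library, where there is no test, 2 reversed (Tuba1a without NOD 2, Tubb2a without NOD 1) and the others kept their direction. That of Tuba4a, 0.47, ran from 0.20 to 0.69. The edgeR fit with 1 common dispersion, among the 7 other fits, was also chosen after seeing the data. The causes were not tested. No paired analysis was possible because the B6 group has a single library.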
